A study of Mus musculus with 3 samples.

Results

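The genes described here encode enzymes and complex subunits that write, erase or read marks on histones or that move nucleosomes. They were taken by gene symbol: the protein-coding Hdac, Sirt1 to Sirt7, Kat, Kdm, Kmt, Cbx, Phc1 to Phc3 and Smarc genes, with Ezh1, Ezh2, Eed, Suz12, Ep300 and Crebbp. In the mouse annotation 82 of 21851 protein-coding genes met this rule. Of the 17149 listed GLI3 peaks, 105 had their summit in the promoter window of a chosen gene, the stretch from 2 kb before to 1 kb after any start site of its coding transcripts (transcription start site, TSS).

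Sites bound by GLI3 were mapped by ChIP-seq, in which DNA fragments attached to a protein are precipitated and sequenced, in E10.5 mouse forelimb buds (32 to 35 somites). All 3 libraries, 2 ChIP replicates and 1 input control, came from mice of mixed background described as carrying a FLAG tag on the endogenous Gli3 gene, although their genotype label reads wild type. Limb buds of 2 litters went into each ChIP reaction, were dissociated with Liberase before fixation, and gave libraries amplified by 15 PCR cycles. The 3 libraries were taken to have entered 1 peak list, which holds no value for either replicate. No value below therefore carries a replicate error, and no untagged control was analysed here. Whole pooled buds were used, so fewer cells with GLI3 on a site and less GLI3 per cell cannot be told apart.

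In cells without Hedgehog (HH) signaling, the transcription factor GLI3 acts chiefly as a repressor of HH target genes. Histone deacetylases remove the acetyl groups that acetyltransferases such as EP300 and CREBBP place on histone tails, and acetylated lysine 27 of histone H3 (H3K27ac) marks active enhancers. Polycomb repressive complex 2 (PRC2) methylates the same lysine through EZH1 or EZH2, and PRC1 complexes read that methylation through their CBX proteins. The genes for these proteins are used in most cell types, and many have promoters rich in CpG.

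Each peak has a log2 fold enrichment of ChIP over input, the highest among its windows, a false discovery rate (FDR) and a rank, with rank 1 for the highest test statistic of the list. All are the authors' values. The list ran to an FDR of 1 with log2 enrichments from 1.69 to 6.37, and 7282 peaks had an FDR under 0.05, the lowest of them at 2.31. As a check on the list, the HH target genes Ptch1 and Gli1 had promoter peaks of rank 2 (log2 enrichment 6.05) and rank 7 (5.76).

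A listed promoter peak was found at 65 of the 82 chromatin genes, or 79.3% (95% Wilson interval 69.3 to 86.6), against 30.7% of all protein-coding genes. At an FDR under 0.05 the count was 44 of 82, or 53.7% (42.9 to 64.0), against 17.0%. A further 21 genes had only promoter peaks with an FDR of 0.05 or more, and 17 had none. The intervals cover counting error over genes only.

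Base composition moved with this difference. A CpG island at the promoter, found in the sequence, was present at 93.9% of the chromatin genes and at 58.6% of all protein-coding genes. Among genes with such an island the chromatin genes had a listed promoter peak in 63 of 77 cases (81.8%, interval 71.8 to 88.8), against 50% of all island genes, and a peak at an FDR under 0.05 in 43 of 77 cases (55.8%, 44.7 to 66.4), against 28.1%. Among genes with an island by this yes-or-no measure, the share of chromatin genes was above that of all island genes, by a smaller ratio. GC content, island length and number of TSSs were not matched. Activity of the promoters and chromatin openness were not measured in these files, and their part in the counts was not tested.

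**Figure D1:**
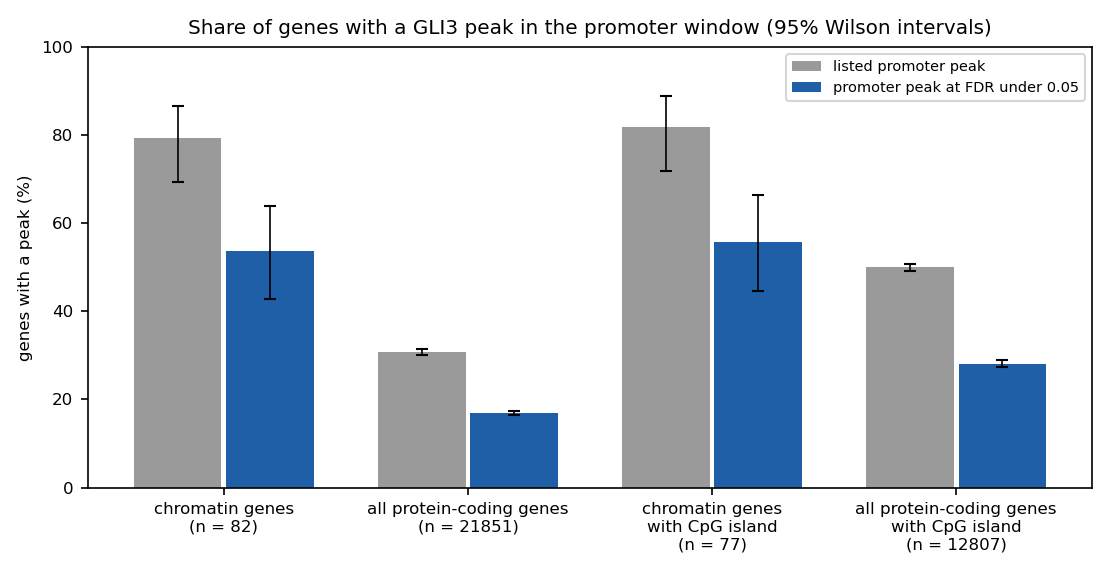
Percentage of genes with a GLI3 peak in the promoter window, for all listed peaks (grey) and for peaks with an FDR under 0.05 (blue), with 95% Wilson intervals over genes. The chromatin genes sit at 79.3% and 53.7%, all protein-coding genes at 30.7% and 17.0%, and the gap is narrower among genes with a CpG island (81.8% against 50%, and 55.8% against 28.1%).

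The highest promoter peak of each gene had a median log2 enrichment of 2.63 (quartiles 2.2 and 2.96, n = 65), against 2.39 (2.1 and 2.79, n = 6716) over all genes with a promoter peak. The 95% order-statistic interval of the chromatin gene median, which covers counting over genes only, ran from 2.42 to 2.8 and just left out the median of all genes. With CpG island genes alone the median was 2.64 (2.45 to 2.81, n = 63) against 2.41. The interval held the background where peaks were limited to an FDR under 0.05 (2.84, 2.68 to 3.03, against 2.73). It also did so where every promoter peak was counted once (2.37, 2.19 to 2.55, against 2.27) and where only the 5′ end of each gene was used (2.53, 2.27 to 2.75, against 2.38). Whether the interval left out the background thus depended on these choices. An FDR under 0.05 admits only enrichments of at least 2.31, so that setting limits the value compared. Among the chromatin genes the values ran from 1.80 to 5.10, and over all genes with a promoter peak from 1.69 to 6.05.

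The 10 genes with the highest promoter enrichment were Ezh1, Cbx5, Cbx8, Kmt2c, Smarca4, Kdm4b, Kmt2a, Kdm4c, Kmt2d and Kdm5a. They come from 6 of the 10 sets into which the genes were sorted by function. Ezh1, an H3K27 methyltransferase of PRC2, stood apart with a log2 enrichment of 5.10, or 34.3-fold over input, at rank 18 of the list. Cbx5, which encodes the heterochromatin protein HP1 alpha, followed at 4.27 (19.3-fold, rank 134), and Cbx8, a PRC1 subunit, at 3.94 (15.4-fold, rank 287). The other 7 lay between 3.30 and 3.66.

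**Figure D2:**
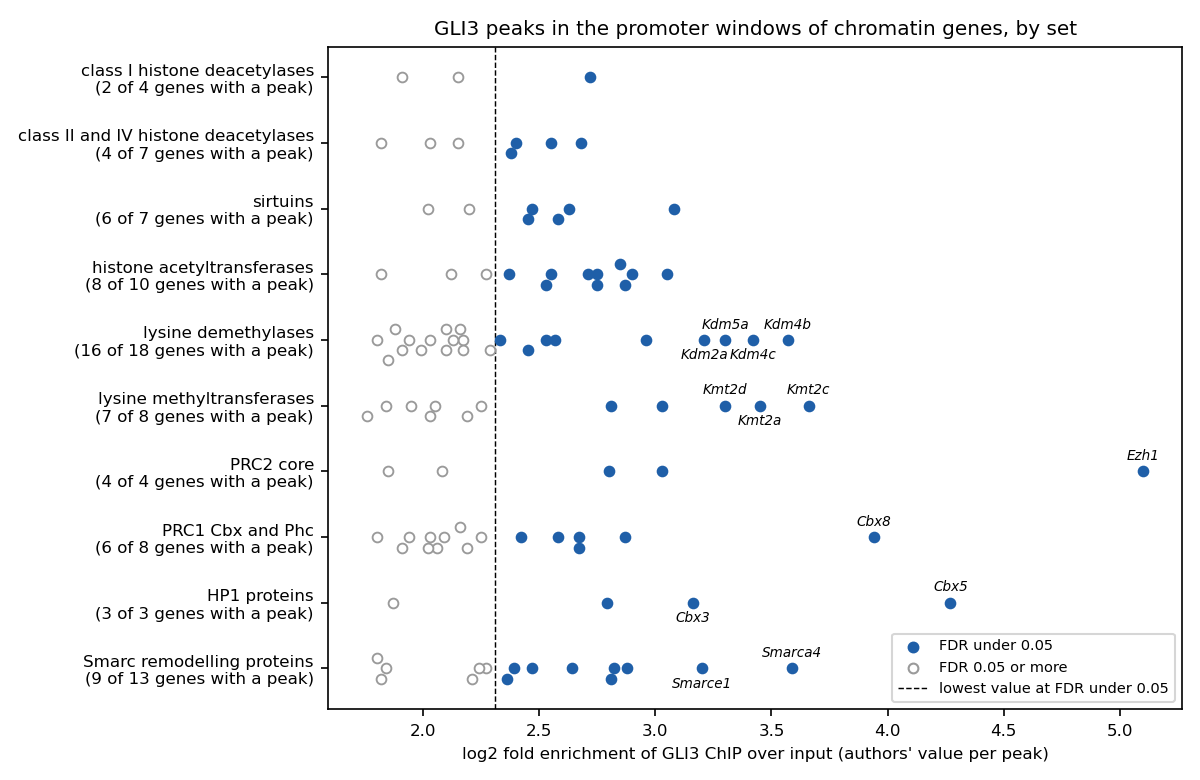
Log2 fold enrichment over input of all 105 promoter peaks, by set of genes, with peaks at an FDR under 0.05 filled and the other peaks open; the dashed line marks 2.31, the lowest enrichment at an FDR under 0.05 in the whole list, and the highest are named. Ezh1 at 5.10 lies to the right of every other gene, and all class I and II histone deacetylase peaks reach at most 2.72.

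The sequence at the summits is shown for Ezh1 and Cbx8, the most enriched promoter peaks whose 121 bases around the summit touch no annotated exon. Both are the plus strand of GRCm38.p6 (mm10), as read from that build. The Ezh1 stretch is at chr11:101226272-101226392, in an Ezh1 intron with its summit 94 bp downstream of a TSS, and its GC content is 63.6%. The Cbx8 stretch is at chr11:119042842-119042962, between genes and 1933 bp upstream of the Cbx8 TSS, and its GC content is 43.8%. Over 501 bp the GC content was 70.3% at Ezh1 and 58.5% at Cbx8, above and below the median of the 105 promoter peaks (65.7%, against 64.7% for all listed promoter peaks).
Ezh1 summit: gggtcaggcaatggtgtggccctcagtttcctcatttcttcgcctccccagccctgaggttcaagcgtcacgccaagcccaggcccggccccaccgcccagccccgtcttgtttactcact
Cbx8 summit: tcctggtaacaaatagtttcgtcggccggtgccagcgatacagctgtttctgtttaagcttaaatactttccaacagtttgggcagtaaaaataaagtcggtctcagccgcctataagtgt

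GLI proteins bind a 9-base consensus, GACCACCCA, or TGGGTGGTC on the other strand. Within 501 bp around the summit, 13 of the 105 promoter peaks held the consensus with at most 1 mismatch on either strand (12.4%, interval 7.38 to 20). The share over all listed promoter peaks was 15.3%, and windows of the same length 2 kb to either side of the chromatin gene summits held it in 10% of cases. Both backgrounds lie within the interval of the chromatin gene peaks, so no difference was read from this number of peaks. The side windows flank the same summits and are not independent of them, and no paired comparison was run. A match is a description of the letters only, and a window without a match says nothing on whether GLI3 contacts the DNA there.

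The exact consensus stood in 1.15% of all listed promoter peaks. In the group it was found in a single promoter peak (0.952%), that of Smarca4, which encodes the SWI/SNF ATPase BRG1. It is given here with 10 bases on either side, beside matches with 1 mismatch at Ezh1, Kdm4b, Suz12 and Smarcd2, since these are the more enriched promoter peaks with a match. All are on the plus strand of GRCm38.p6, capitals mark the 9-base match, and a match read on the minus strand appears as its reverse complement. The Ezh1 window is chr11:101226126-101226154, that of Smarca4 chr9:21615862-21615890, that of Kdm4b chr17:56326565-56326593, that of Suz12 chr11:79992654-79992682 and that of Smarcd2 chr11:106268259-106268287. The matches of Kdm4b and Smarcd2 are on the minus strand.
Ezh1: agacgccaagGCCCACCCAcgttggcacg
Smarca4: ctcccatctgGACCACCCAccccctcccc
Kdm4b: gatgacagcgTGGGTGGCCcggtccagcc
Suz12: cacttcctgaGACCACACAgtctcgggat
Smarcd2: ttatggttctTGGGTGGCCtgtgggaatg

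The match lay 192 bp from the summit at Ezh1, 121 bp at Smarca4, 57 bp at Kdm4b, 99 bp at Suz12 and 41 bp at Smarcd2. Cbx5 and Cbx8, the next in enrichment after Ezh1, held no match, nor did Kmt2a, Kdm4c, Kmt2d or Kdm5a. Matches stood also in weak peaks, as at Kmt2c, whose match lay 3 bp from the summit of a second peak with a log2 enrichment of 1.84 and an FDR of 1. Words of factors common at CpG-rich promoters are given beside their share in all listed promoter peaks: GGGCGG, read by SP and KLF factors, was in 76.2% of the windows (79.5% of all), CCAAT, read by NFY, in 37.1% (39.9%), CCGGAAG, read by ETS factors, in 16.2% (19.2%), CACGTG, the E-box, in 19.0% (14.1%), GCGCATGC, read by NRF1, in 9.52% (7.63%), and TGACGTCA, the cAMP response element, in 1.90% (2.72%).

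The 105 summits gathered near the start sites. Their median distance from the nearest TSS of the gene was 187 bp, against 139 bp over all listed promoter peaks, and 83 (79.0%) lay within 500 bp, against 82.9%. Upstream and downstream positions were about equal, at 54 and 51. By annotation 40 summits were in introns, 32 between genes, 25 in untranslated regions and 8 in coding exons. Just inside the limits of the window were the Cbx8 peak at 1933 bp upstream (log2 enrichment 3.94) and a Sirt1 peak at 900 bp downstream (2.02). Just outside were a Kdm6b peak at 2427 bp upstream (2.45) and a Kdm7a peak at 1002 bp downstream (2.35).

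**Figure D3:**
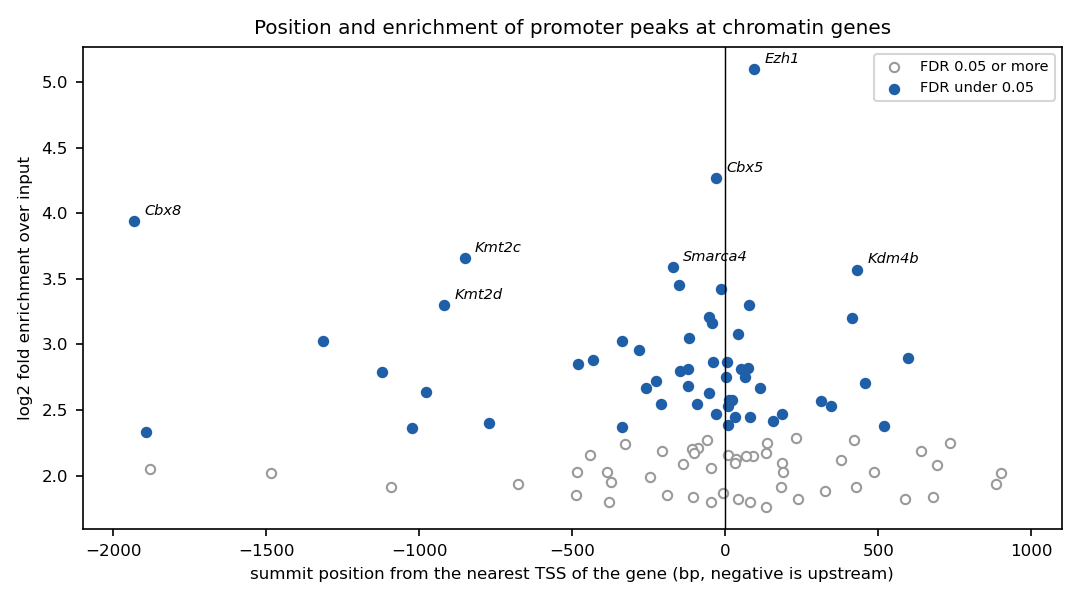
Log2 fold enrichment of each of the 105 promoter peaks against the position of its summit from the nearest TSS of the gene in bp, negative upstream, with peaks at an FDR under 0.05 filled. Most summits lie within 500 bp of the TSS, Ezh1 (94 bp) and Cbx5 (-30 bp) among them, while Cbx8 (-1933 bp), Kmt2d (-918 bp) and Kmt2c (-852 bp) lie well upstream.

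More than a single peak was listed in the promoter windows of 24 chromatin genes (29.3%, interval 20.5 to 39.9), against 8.05% of all protein-coding genes. Among CpG island genes the shares were 31.2% (21.9 to 42.2) and 13.4%. Cbx8 had 5, and Kat6b, Kdm2b and Smarca2 had 4. All 4 peaks of Kat6b passed an FDR of 0.05, with log2 enrichments of 2.85, 2.55, 2.53 and 2.37, while at Cbx8 and Smarca2 2 peaks did and at Kdm2b 1. The number of TSSs differs between these genes: Smarca2 has 12, Kdm2b has 5, Kat6b has 4, and Cbx8 has 1.

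For 6 of the 105 peaks the window also belonged to a gene outside the group. Cbx3 shares its promoter region with Hnrnpa2b1, Kat14 with Pet117, Sirt3 with Psmd13, Sirt6 with Ankrd24 and Kdm4d with Cwc15. At Kdm4d the TSS of Cwc15 was the nearer, and so was that of Hnrnpa2b1 for the second Cbx3 peak (2.79). Peaks at these shared promoters cannot be given to either gene from the list.

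Class I histone deacetylases are zinc-dependent enzymes, of which HDAC1 and HDAC2 belong to the Sin3 and NuRD corepressor complexes and HDAC3 to NCoR, while HDAC8 is not known as a subunit of these. Of the 4 genes, 2 had a listed promoter peak and 1, Hdac2, had a peak at an FDR under 0.05. The Hdac2 peak lay 227 bp upstream with a log2 enrichment of 2.72 (FDR = 0.00113, rank 3466), and a second peak 92 bp downstream was at 2.15 (FDR = 0.233). Hdac1, whose product pairs with HDAC2 in these complexes, had a peak 426 bp downstream at 1.91 (FDR = 0.782), and only 11.6% of all listed promoter peaks were lower. Hdac3, the enzyme of the NCoR complex, had no listed promoter peak, and the nearest listed summit was 19594 bp away, nearer to Diaph1. Hdac8 had no listed peak within 100 kb.

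Among the class II and IV deacetylases, 4 of 7 genes had a listed promoter peak and 3 at an FDR under 0.05. Hdac6, which deacetylates tubulin in the cytoplasm, had the highest, at 2.68 (FDR = 0.00228). Hdac5 and Hdac4, class IIa enzymes that shuttle between nucleus and cytoplasm, reached 2.55 (FDR = 0.00705) and 2.40 (FDR = 0.0209), and each had a GLI word with 1 mismatch, 43 bp from the summit of a second Hdac5 peak (2.38) and 24 bp from that of Hdac4. Hdac7 was at 2.03 (FDR = 0.438). Hdac9, Hdac10 and Hdac11 had no listed promoter peak, with the nearest listed summit at 57385, 5321 and 79867 bp.

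The sirtuins deacylate proteins with NAD as a cofactor, SIRT1, SIRT6 and SIRT7 in the nucleus and SIRT3, SIRT4 and SIRT5 in mitochondria. Listed promoter peaks were present at 6 of 7 genes and at an FDR under 0.05 at 5. Sirt5 had the highest at 3.08 (8.48-fold), followed by Sirt1 (2.63), Sirt3 (2.58), Sirt6 (2.47) and Sirt7 (2.45). Sirt4 was at 2.2 (FDR = 0.133), and Sirt2, a largely cytoplasmic enzyme, had its nearest listed summit 41893 bp away. Mitochondrial and nuclear members were thus both among those with promoter peaks.

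Histone acetyltransferases had listed promoter peaks at 8 of 10 genes and at an FDR under 0.05 at 6. Ep300, which acetylates H3K27, had peaks 40 bp upstream and 455 bp downstream at 2.87 (7.32-fold, FDR = 0) and 2.71 (FDR = 0.00113). Its paralog Crebbp had a peak 60 bp upstream at 2.27 with an FDR of 0.0704, so it missed the threshold. Kat6a (3.05) and Kat6b (2.85), the H3 acetyltransferases MOZ and MORF, Kat2b (2.90), which encodes PCAF, Kat5 (2.75), which encodes TIP60, and Kat14 (2.75), a subunit of the ATAC complex, passed it. Kat8, the H4K16 acetyltransferase MOF, was at 1.82 (FDR = 1). Kat2a, which encodes GCN5, and Kat7, which encodes HBO1, had no listed promoter peak, with the nearest summits at 89513 and 26806 bp, so the close paralogs Kat2a and Kat2b differed in whether a peak was listed.

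Lysine demethylases, the most numerous set, had listed promoter peaks at 16 of 18 genes and at an FDR under 0.05 at 9. The highest values were at Kdm4b (3.57, 11.9-fold), Kdm4c (3.42) and Kdm5a (3.30), and Kdm2a (3.21) and Kdm3a (2.96) followed. KDM4 enzymes act on H3K9 and H3K36, KDM5 enzymes on H3K4, KDM2 on H3K36 and KDM3 on H3K9. Kdm2b (2.57), Kdm4a (2.53), Kdm3b (2.45) and Kdm6b (2.33) also passed the threshold. Kdm6b, an H3K27 demethylase, lacked a CpG island by the measure used and had its peak 1892 bp upstream. Its X-linked paralog Kdm6a, which also encodes an H3K27 demethylase, was at 1.88 (FDR = 0.808).

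Lower values were listed for Kdm8 (2.29), Kdm1a (2.16), Kdm5c (2.1), Kdm5b (2.03), Kdm4d (1.99) and Kdm7a (1.91), none at an FDR under 0.05. Kdm1a encodes LSD1, an H3K4 demethylase of the CoREST corepressor. Kdm1b and Kdm5d had no listed promoter peak. Kdm5d lies on the Y chromosome, and the nearest listed summit was 57956147 bp away. Of the 5 X-linked genes of the group, 3 had a listed promoter peak and 1, Hdac6, a peak at an FDR under 0.05.

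Lysine methyltransferases of the Kmt names had listed promoter peaks at 7 of 8 genes and at an FDR under 0.05 at 4. These 4 were Kmt2c (3.66, 12.6-fold), Kmt2a (3.45, 10.9-fold), Kmt2d (3.30, 9.87-fold) and Kmt2b (2.81, 7.04-fold), which encode H3K4 methyltransferases of the MLL family, MLL3 and MLL4 (KMT2C and KMT2D) being those that act at enhancers. Kmt2c and Kmt2d had their summits 852 and 918 bp upstream, farther out than Kmt2a at 151 and Kmt2b at 121 bp. Kmt2a had further upstream peaks at 1316 bp (3.03) and 1881 bp (2.05). Kmt2e, at 2.25 (FDR = 0.0763), and the H4K20 methyltransferase genes Kmt5b (2.19, FDR = 0.133) and Kmt5a (1.95, FDR = 0.727) missed the threshold, and Kmt5c had no listed promoter peak.

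All 4 core PRC2 genes had a listed promoter peak and 3 had a peak at an FDR under 0.05. After Ezh1 (5.10), Suz12 followed at 3.03 (8.16-fold, 339 bp upstream) and Eed at 2.80 (6.98-fold, 149 bp upstream), which encode a scaffold subunit and the subunit that binds trimethylated H3K27. Ezh2, the more active methyltransferase of the pair in dividing cells, had promoter peaks 693 bp downstream (2.08, FDR = 0.251) and 487 bp upstream (1.85, FDR = 1). The fold enrichment was thus 34.3 at the best Ezh1 peak and 4.22 at the best Ezh2 peak. With no replicate values the difference between the paralogs has no error of its own.

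Genes of PRC1, the Cbx readers of H3K27 methylation and the polyhomeotic Phc genes, had listed promoter peaks at 6 of 8 and at an FDR under 0.05 at 5. After Cbx8 (3.94) came Cbx2 (2.87), whose summit lay 5 bp downstream of the TSS, Phc1 (2.67), Phc3 (2.67) and Phc2 (2.42). Cbx6 and Cbx7 had no listed promoter peak, and the nearest listed summits were 29624 and 17950 bp away. The HP1 genes, whose proteins bind methylated H3K9, all had a listed promoter peak: Cbx5 at 4.27 and Cbx3 at 3.16 with an FDR of 0, and Cbx1 at 1.87 with an FDR of 1.

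Among the Smarc genes, which encode subunits of SWI/SNF and ISWI remodellers and related helicases, 9 of 13 had a listed promoter peak and 6 at an FDR under 0.05. Smarca4 had the highest at 3.59 (12.0-fold, 172 bp upstream), and the other SWI/SNF ATPase gene, Smarca2, reached 2.64 (FDR = 0.00417). Smarce1 (3.20), Smarcd2 (2.88), Smarcd3 (2.82) and Smarcad1 (2.39) also passed. The ISWI ATPase gene Smarca5 was at 2.27 (FDR = 0.0704), and the SWI/SNF core subunit genes Smarcb1 (1.82) and Smarcc2 (1.80) had an FDR of 1. Smarca1, Smarcal1, Smarcc1 and Smarcd1 had no listed promoter peak. Within SWI/SNF the values therefore ran from no listed peak to 3.59, and the paralog pairs Smarcd1 and Smarcd2 and Smarcc1 and Smarcc2 differed in whether a peak was listed.

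Within 100 kb, 78 of the 82 genes had a listed peak (95.1%, interval 88.1 to 98.1), against 70.6% of all protein-coding genes, and the median was 3 peaks a gene against 2. Among CpG island genes the shares were closer, at 97.4% (91.0 to 99.3) and 86.3%. The exceptions were Hdac8, Kdm5d, Smarca1 and Smarcal1. In all 357 different peaks lay in this range, 177 of them at an FDR under 0.05, but 148 were promoter peaks of genes outside the group and 104 were distal, that is in no promoter window. The number of other genes within 100 kb had a median of 3 for both the chromatin genes and all genes. At the limit of this range, a Smarcd1 peak lay just inside at 99776 bp (2.2) and an Hdac3 peak just outside at 102214 bp (2.39).

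**Figure D4:**
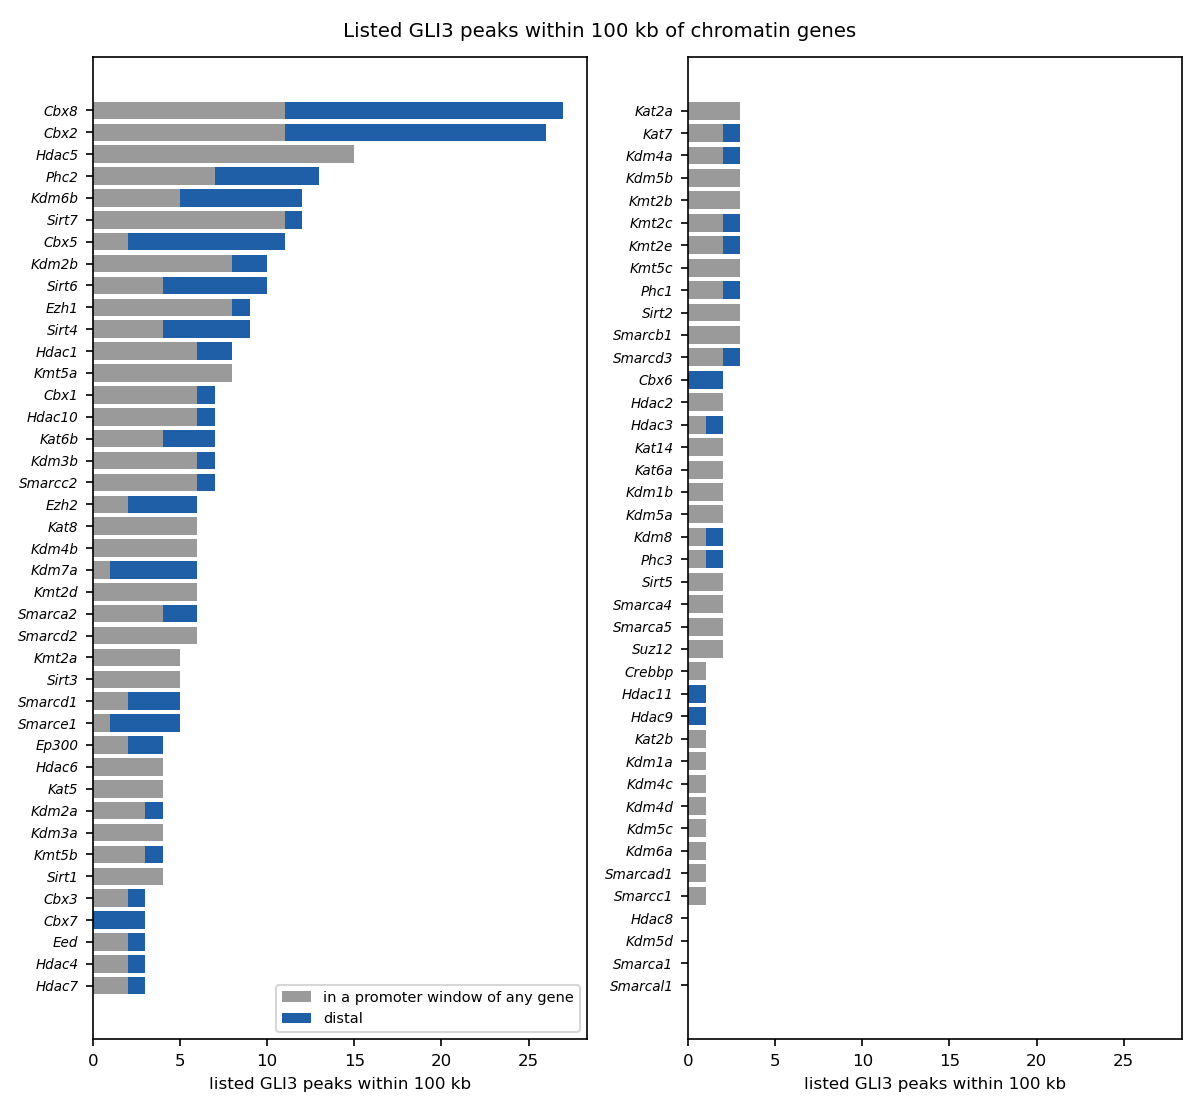
Number of listed GLI3 peaks within 100 kb of the chromatin genes reported by name, divided into peaks in the promoter window of any gene (grey) and distal peaks (blue). Cbx8 and Cbx2, which are neighbours, have the longest bars with 27 and 26 peaks, and 4 genes have none.

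A distal peak at an FDR under 0.05 lay within 100 kb of 27 chromatin genes (32.9%, interval 23.7 to 43.7), against 21.0% of all protein-coding genes. Among genes with a CpG island it was 25 of 77 (32.5%, interval 23.1 to 43.5) against 26.3%, a background inside the interval. By set the count was 7 of 8 for the PRC1 genes and 2 of 3 for the HP1 genes, 2 of 4 for PRC2, 3 of 7 for the sirtuins, 3 of 10 for the acetyltransferases, 4 of 18 for the demethylases, 2 of 8 for the methyltransferases, 3 of 13 for the Smarc genes, 1 of 4 for class I deacetylases and 0 of 7 for class II and IV deacetylases. Among the PRC1 genes, Cbx2 and Cbx8 are neighbours on the chromosome, and Cbx6 and Cbx7 share a peak at 2.35 (FDR = 0.0374). Only 26 of the 54 distal peaks at this FDR had a chromatin gene as the gene with the nearest TSS. Which gene a distal peak acts on is not known from the list.

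The most enriched distal peak lay in an intron of Kdm2b, which encodes the subunit that brings a variant PRC1 complex to CpG islands. Its summit was 18107 bp from the nearest Kdm2b TSS and its log2 enrichment was 4.05 (16.6-fold, rank 221), above the best Kdm2b promoter peak (2.57). Other distal peaks of high enrichment lay 56393 bp from Sirt6 (3.75), nearer to the corepressor gene Tle2, 68164 bp from Kdm2b and nearer to Morn3 (3.64), and 31287 bp from Kmt2c and nearer to Cct8l1 (3.46).

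Ezh2 had the reverse arrangement to Ezh1. Its highest peak within 100 kb was distal, 56172 bp upstream, with a log2 enrichment of 3.44 (10.9-fold, FDR = 0, rank 837), against 2.08 at the promoter, and no protein-coding gene had a nearer TSS. This peak held the exact GLI consensus 50 bp from its summit. Eed had a distal peak 72406 bp away at 3.34, nearer to Ccdc81, with 2 matches of 1 mismatch.

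The exact consensus was in 6 of the 104 distal peaks (5.77%, interval 2.67 to 12.0), against 3.09% of all listed distal peaks, and the consensus with at most 1 mismatch in 18.3% against 20.2%. Both backgrounds lie within the intervals of the chromatin gene peaks. The most enriched distal peaks with the exact consensus are printed because they pair a strong peak with the full GLI word near its summit. They stand on the plus strand of GRCm38.p6 with the match in capitals, at chr6:47651238-47651266 for Ezh2, chr15:103182487-103182515 for Cbx5 and chr11:118998687-118998715 for the peak before Cbx2, where the match is on the minus strand.
Ezh2 distal: ccgcgccccgGACCACCCActgggggcta
Cbx5 distal: tccaaattgcGACCACCCAgggcgacttg
Cbx2 distal: gggacccactTGGGTGGTCcgtgtgggga

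The Cbx5 peak was 32738 bp from a Cbx5 TSS and nearer to Smug1, with a log2 enrichment of 3.42 and the match 66 bp from its summit. The peak before Cbx2 was 24265 bp from its TSS and nearer to Enpp7, with an enrichment of 3.16 and the match 4 bp from its summit. The other exact matches were in peaks 11578 bp from Sirt6 (2.99), in an intron of the nearer gene BC025920 with the match 5 bp from the summit, 77237 bp from Phc2 (2.72), in an intron of Zfp362 and 1223 bp from its TSS with the match 90 bp from the summit, and in a weak peak 1286 bp from Smarcc2 (1.87, FDR = 0.822).

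Cbx2 and Cbx8 lie side by side on chromosome 11 and had 26 and 27 listed peaks within 100 kb, of which 10 and 11 had an FDR under 0.05 and 15 and 16 were distal. The 2 counts describe largely the same stretch of DNA and are not independent. The strongest peaks near them were that 1933 bp upstream of Cbx8 (3.94), the distal peak before Cbx2 with the exact consensus (3.16), a further peak 12253 bp upstream of Cbx8 (3.07) and the Cbx2 promoter peak (2.87). Of the 5 Cbx8 promoter peaks the other 4 were weaker, at 2.58 (FDR = 0.00704), 2.25, 2.03 and 2.02, the last 3 with an FDR over 0.05. Large counts within 100 kb were also present at Hdac5, with 15 peaks and no distal peak among them, and at Phc2, with 13 peaks of which 6 were distal.

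Other genes of the same complexes, which the symbol rule does not take in, were listed by function as subunits of corepressors, Polycomb complexes and SWI/SNF and as further methyltransferases. Of these 81 genes, 66 had a listed promoter peak (81.5%) and 41 a peak at an FDR under 0.05 (50.6%). These shares were close to the 79.3% and 53.7% of the chromatin genes above. Over all protein-coding genes the shares were 30.7% and 17.0%, and over those with a CpG island 50% and 28.1%. Corepressor subunits had 22 of 25 and 17 of 25, other Polycomb subunits 16 of 20 and 10 of 20, other SWI/SNF subunits 15 of 17 and 6 of 17, and other methyltransferases 13 of 19 and 8 of 19. The highest values were at Skil, which encodes the SMAD corepressor SNON (log2 enrichment 4.41, rank 98), the SWI/SNF subunit gene Arid1a (4.01), the NuRD subunit genes Mbd3 (3.94) and Chd3 (3.78), and Nsd1, an H3K36 methyltransferase gene (3.73).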

How the data were processed

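The deposited peak list was attached to the record of ChIP replicate 1. The study names CisGenome 2.1.0 as its peak caller and 2 biological replicates for its GLI3 peaks. It does not spell out how input entered this call. The list was treated as a joint call of both replicates against input. Bowtie2 2.2.5 and mm10 are named in the submitters' processing notes. The deposited list gives an FDR (the q-value of the authors' peak caller), the highest log2 fold enrichment, a T statistic (a score, by which the authors ranked the peaks) and a Poisson p-value as its −log10, capped at 100 by the authors' software. Whether positions count from 0 or 1 is not stated, so they may be off by 1 bp. No read totals accompany the list, and the study's methods state a minimum number of reads per sample only, so each library's own total was not used here.

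Peaks were assigned by summit to TSSs of protein-coding transcripts (GENCODE M21, basic set) on GRCm38.p6, with 5 peaks on unplaced sequence and 100 genes without such a TSS left out. CpG islands were 500 bp windows with GC of at least 0.55 and an observed to expected CpG ratio of at least 0.65. Motif windows were 501 bp. Shares carry 95% Wilson intervals (scipy 1.17.1, with pandas 2.3.3 and pysam 0.24.0), which cover counting over genes or peaks only. No test across genes was run. The assignment and motif search were tested on simulated data.

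The members and the lists of related genes were chosen with earlier results of these data known. Genes are named in the text as Hdac1 to Hdac3, the PRC2 core genes, Ep300 and Crebbp, the 10 highest promoter enrichments, the highest of each set, those with no listed promoter peak, those with the most peaks within 100 kb, those beside the 5 most enriched distal peaks, those with the exact GLI consensus and those at the limits of the windows. Results for 1 member are not reported here by name. Genes named beyond these were chosen after their values were seen. Alternatives changed the window, the TSSs, the FDR, the distance, the assignment and the motif.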

Additional observations from a re-analysis of the deposited data

How the results depend on the processing

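Of 32 alternatives to 6 results, 20 stayed within the interval of the value reported. The share of genes with a listed promoter peak fell from 79.3% to 45.1% at an FDR under 0.01 (12.3% of all genes). The median log2 enrichment of the best promoter peak was 2.84 at an FDR under 0.05 (2.73 for all genes), 2.37 with every promoter peak counted once (2.27) and 2.53 with gene 5′ ends only (2.38), and in each case the interval of the chromatin genes held the value for all genes. The median number of peaks within 100 kb was 2 at an FDR under 0.05 (1 for all genes) and 1 without promoter peaks (0). Within 50 kb the median was 2 (1), and within 200 kb it was 6 (3). The share of genes with a distal peak was 51.2% for every listed peak (37.4% of all genes), 18.3% within 50 kb (interval 11.4 to 28, which holds the 11.7% of all genes) and 14.6% for the nearest gene only (7.67%). For the exact consensus the share of promoter peaks with a GLI word was 0.952% (1.15% of all listed promoter peaks). Within 100 bp of the summit it was 4.76% (7.2%). With the 5′ end of each gene in place of all TSSs, 72.0% had a listed promoter peak (28.5% of all genes). At an FDR under 0.05 the share was 43.9% (15.6%). The members' value was at or above that of all genes or peaks in 28 alternatives and below it in 4, all for the GLI word. Alternatives on the nearest gene for promoter peaks and on CpG islands for the median enrichment were chosen after seeing the data. No paired analysis was possible because each peak has values for the ChIP libraries jointly and not by replicate, and leaving out each replicate was not run for the same reason. Without the read totals of these libraries, a gene with no listed peak cannot be told from one below detection.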
